A study of Mus musculus with 12 samples.

Results

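Potassium channel genes were read out of total RNA sequenced from mouse oligodendrocyte precursor cells in culture (OPCs), a proliferating glial population from which the myelin-forming oligodendrocytes develop. Members were all protein-coding genes whose symbol in Ensembl release 96 starts with Kcn, which gave 94 of the 55536 genes of the annotation. Of these, 65 had at least 10 reads in at least 4 libraries and were tested. The other 29 did not reach that level and are given by their read counts.

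All cultures came from brains of mouse pups aged P4 to P6, pooled over several pups, and were Sox10GFP+ OPCs per the labels. The protocol names both sorting on Sox10-driven GFP, which marks the whole oligodendrocyte lineage, and magnetic beads against CD140a (the PDGF receptor α), and it does not say which library came from which. In the study's line a Cre driven by Sox10 switches on EGFP, and every group shares it. The labels also give EAE, a mouse model of multiple sclerosis, as the model of all 12 samples, controls included. Ctr-OPCs were grown with PDGFaa and bFGF and left untreated, Dexa-treated OPCs received 1 µM dexamethasone (a synthetic glucocorticoid) for 48 h, and IFN-γ-treated OPCs received 100 ng/ml of the cytokine IFN-γ for 48 h. Each group had 4 libraries from different litters. The table of Dexa replicate 3 ended part-way, so fits over all genes held 4 Ctr, 3 Dexa and 4 IFN-γ libraries.

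The 11 complete libraries held 19209059 to 52074655 reads in genes. The 9 OPC markers checked (*Pdgfra*, *Cspg4*, *Olig2* and others) were all detected, with a summed level of 695 to 1553 TPM, a read count scaled by transcript length and library size. The 8 microglial markers summed to at most 0.916 TPM, the 7 pericyte and fibroblast markers to at most 1.80 TPM and the 3 endothelial markers to at most 0.881 TPM. In these bulk samples fewer cells of a type and less RNA per cell cannot be told apart. Libraries numbered 1 stood apart in every group: their OPC marker sums were 818, 979 and 695 TPM in Ctr, Dexa and IFN-γ, against 1249 to 1553 TPM in the other 8 complete libraries.

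Potassium channels are pores that let potassium ions leave or enter the cell and so set the resting potential and end electrical responses. Voltage-gated channels (the Kcna to Kcnd families, the ether-a-go-go family Kcnh and the KCNQ family) open on depolarization, with the Kcnf, Kcng, Kcns and Kcnv proteins joining them as subunits that form no channel alone. Inward rectifiers (Kcnj) and two-pore channels (Kcnk) carry current near rest, and the Kcnm, Kcnn, Kcnt and Kcnu channels are gated by calcium, sodium or pH. OPCs are known for large voltage-gated outward currents, which shrink as the cells mature while inward rectifier current grows.

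The RNA of an accessory subunit and of the A-type channels it joins stood at the top of the family in untreated OPCs. *Kcnip3*, a calcium-binding protein that joins Kcnd channels and is also known as a transcriptional repressor, had 68.9, 122, 110 and 78.0 TPM in Ctr replicates 1 to 4. Next came the A-type channel genes *Kcnd2*, at 18.8 to 31.3 TPM with a median of 26.8, and *Kcnd3*, at 15.8 to 20.9 TPM with a median of 19.6. *Kcnmb4*, the β subunit that tunes the large-conductance calcium-activated (BK) channel, had a median of 18.7 TPM (range 12.9 to 24.2). *Kcna6*, a delayed rectifier of the Shaker family, followed at 12.4 TPM (range 6.69 to 16.1). Only *Kcnip3* was separated from the next gene by its range: *Kcnd2*, *Kcnd3* and *Kcnmb4* overlapped each other, as did each later pair of neighbours among the first 12.

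Below 10 TPM stood the glial inward rectifier *Kcnj10* (median 9.83 TPM, range 8.06 to 11.96) and *Kcnj16*, which forms mixed channels with it (6.48 TPM, range 4.93 to 8.36). The mechano- and lipid-sensitive two-pore channel *Kcnk10* lay between them at 9.001 TPM (range 4.15 to 9.99), and its relative *Kcnk2* was at 3.23 TPM. The BK pore *Kcnma1* had 3.17 TPM (range 2.89 to 3.53), so its β subunit *Kcnmb4* was listed at a higher level than the pore in every Ctr library. In all, 21 of the 65 members tested had a median over 1 TPM in Ctr-OPCs and 5 had one over 10 TPM. Their median was 0.572 TPM, against 4.12 TPM for all 17919 genes tested.

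**Figure D1:**
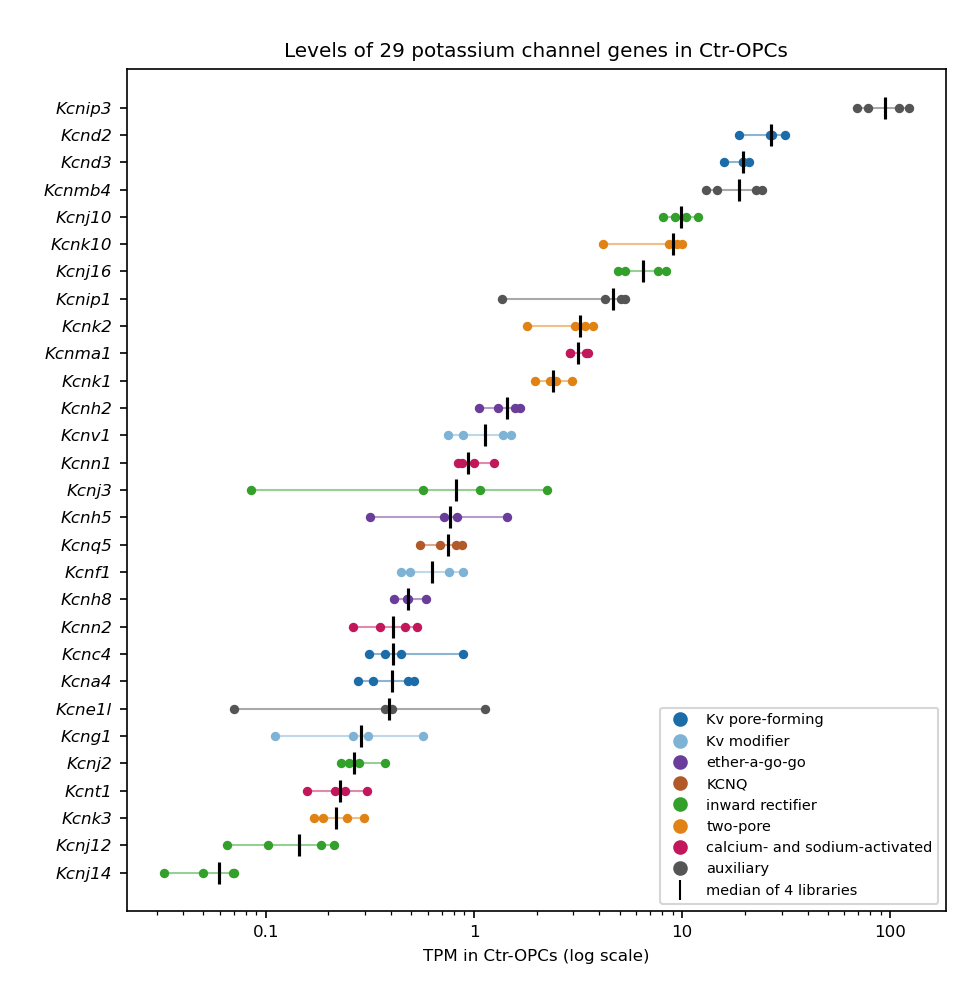
TPM of 29 named potassium channel genes in Ctr-OPCs, ordered by median on a log axis, with 1 point per library (4 libraries), a line over their range, a bar at the median and colours for the channel class. *Kcnip3* lies to the right of all others, and *Kcnj3* has the widest range, from 0.0852 to 2.24 TPM.

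The classes were unequally represented. All 8 calcium- and sodium-activated genes passed the read minimum, as did 14 of 17 pore-forming Kv genes, 7 of 8 ether-a-go-go genes, 4 of 5 KCNQ genes, 10 of 15 inward rectifiers, 7 of 14 two-pore genes, 11 of 17 auxiliary genes and 4 of 10 Kv modifiers. Among the 29 that did not pass, *Kcne3* and *Kcnk16* had 0 reads in every library that lists them, and *Kcnj8*, the inward rectifier of pericytes, had at most 2. The largest counts of this group were 41 reads for *Kcnh1* and 24 for *Kcna5*.

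Summed over members, the whole family had 254 ± 41.7 TPM in Ctr (SD, n = 4), 260 ± 28.9 in Dexa (n = 3) and 238 ± 41.9 in IFN-γ (n = 4). In CPM, a read count scaled by library size but not by length, the sums were 1466 ± 179 in Ctr, 1510 ± 181 in Dexa and 1234 ± 178.5 in IFN-γ, and the IFN-γ library was the lower in 4 of 4 same-numbered pairs (1224 to 985.1, 1577 to 1234, 1623 to 1322 and 1439 to 1395 CPM). In TPM the sum was lower in the IFN-γ library for replicates 1 to 3 but higher for replicate 4 (234.9 in Ctr, 271.7 in IFN-γ). In TPM the gap between IFN-γ and Ctr was smaller than the SD of either group, and in CPM it was larger. The auxiliary genes had the largest TPM sum of any class in each complete library but IFN-γ replicate 1 (59.5 TPM, against 66.3 for the pore-forming Kv genes), at 100 to 159 TPM in Ctr, 94.99 to 149 in Dexa and 59.5 to 116 in IFN-γ. In CPM the pore-forming Kv genes stood above them in every complete library, with means of 688 against 461 in Ctr and 607 against 316 in IFN-γ. The sum of the calcium- and sodium-activated genes was 6.12 to 7.78 TPM in Ctr and 9.89 to 19.7 TPM in Dexa, with no overlap. In IFN-γ the same sum was 7.02 to 13.02 TPM and overlapped that of Ctr. The 19.7 TPM was that of Dexa replicate 1, in which *Kcnt1* alone had 7.07 TPM. *Kcnt1* had 1.82 and 1.94 TPM in Dexa replicates 2 and 4 and 0.157 to 0.306 in Ctr. These sums were not tested.

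How IFN-γ changes the channel genes of OPCs was read from the comparison with Ctr-OPCs, fitted over all genes with DESeq2 and called at a Benjamini-Hochberg adjusted p under 0.05. In all 11 members passed, 4 higher and 7 lower: *Kcna4*, *Kcnt1*, *Kcnj2* and *Kcnq5* rose, and *Kcnmb4*, *Kcnk3*, *Kcnh2*, *Kcnf1*, *Kcnc4* and *Kcnh8* were among those that fell. That is 11 of 65 members (16.9%), beside 12.8% of all genes tested, of which 8.02% were higher and 4.83% lower. The median log2 fold change was -0.28 over the 65 members and -0.02 over all genes tested, and 22 of the 65 members had a value above 0, beside 47.4% of all genes. With edgeR's quasi-likelihood test 9 members were called (8.44% of all genes), and all 9 were among the 11.

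*Kcna4* encodes a rapidly inactivating, A-type voltage-gated channel (ENSMUSG00000042604, GRCm38 chr2:107290639-107298502, plus strand). Its normalized counts, which are counts divided by a library size factor, were 46.8, 64.4, 69.6 and 84.7 in Ctr-OPCs and 173, 305, 346 and 481 in IFN-γ-treated OPCs. The groups did not overlap, and the gene was higher in 4 of 4 same-numbered pairs. The log2 fold change was 2.30 ± 0.30 (SE), or 4.92-fold (DESeq2 adjusted p 7.05e-13, edgeR 0.000466). In TPM the gene went from a median of 0.406 in Ctr to 1.55 in IFN-γ. At least 96.1% of its reads lay in the coding transcript class in every complete library.

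*Kcnt1* encodes a sodium-activated potassium channel (chr2:25863734-25918273, plus strand). Ctr-OPCs had 54.2, 40.9, 47.5 and 34.8 normalized counts and IFN-γ-treated OPCs 245, 242, 374 and 363, all above every Ctr library. Its log2 fold change was 2.79 ± 0.42, or 6.90-fold (DESeq2 adjusted p 8.35e-10, edgeR 0.00172). *Kcnj2*, the classical strong inward rectifier that stabilizes the resting potential (chr11:111066164-111076821, plus strand), was at 117, 74.4, 62.0 and 73.8 in Ctr and at 236, 170, 147 and 178 in IFN-γ. It rose by 1.17 ± 0.25 on the log2 scale (DESeq2 adjusted p 5.73e-05, edgeR 0.0111), again in 4 of 4 pairs and without overlap. *Kcnq5*, a subunit of the M-type channel, rose least of the 4: from 204, 216, 137 and 222 to 339, 321, 261 and 308, a log2 fold change of 0.66 ± 0.18 (DESeq2 adjusted p 0.00209, edgeR 0.0340).

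Among the members called, the largest fall in counts was that of the BK β subunit *Kcnmb4* (chr10:116417861-116473878, minus strand). Its normalized counts were 1532, 1422, 777 and 944 in Ctr and 487, 521, 558 and 538 in IFN-γ. The 4 IFN-γ libraries lay close together and below every Ctr library, with a log2 fold change of -1.15 ± 0.24 and an adjusted p of 4.92e-05 (edgeR 0.00831). Its exons share 693 bases with *Kcnmb4os2* on the opposite strand, which had 25 to 159 reads, and whether the quantification used strand is not given in the sources used here. The BK pore *Kcnma1* was at 848, 796, 657 and 717 in Ctr and 1563, 895, 555 and 779 in IFN-γ, and the groups overlapped (log2 0.33 ± 0.28, adjusted p 0.56).

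*Kcnk3*, an acid-sensitive two-pore leak channel, fell by 1.56 ± 0.36 on the log2 scale, from 63.3, 31.6, 35.1 and 34.8 to 11.9, 19.8, 12.8 and 10.3 normalized counts (DESeq2 adjusted p 0.000292, edgeR 0.00850). In *Kcnh2*, the ether-a-go-go-related channel known for cardiac repolarization, the fall was smaller and the libraries tighter: 259, 261, 240 and 223 in Ctr against 179, 157, 188 and 117 in IFN-γ (log2 -0.62 ± 0.15, DESeq2 adjusted p 0.000624, edgeR 0.0331). *Kcnh8*, of the same class, was at 142, 84.9, 101 and 111 in Ctr and 68.6, 68.0, 56.0 and 70.6 in IFN-γ (log2 -0.73 ± 0.21, adjusted p of 0.00570 and, in edgeR, 0.0358). Both ether-a-go-go genes were thus lower in every IFN-γ library than in any Ctr library, while 5 other members of the class did not pass.

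*Kcnf1*, a silent subunit that joins Kcnb channels, fell by 1.01 ± 0.27 on the log2 scale, from 134, 176, 208 and 115 to 82.5, 74.6, 101 and 56.5 (DESeq2 adjusted p 0.00307, edgeR 0.0385). *Kcnc4*, of a family of fast channels with a high threshold, missed the edgeR threshold. It was at 182, 65.1, 55.8 and 86.9 in Ctr and at 42.7, 7.55, 2.33 and 8.99 in IFN-γ (log2 -2.65 ± 0.72, DESeq2 adjusted p 0.00312, edgeR 0.0589). Its groups did not overlap, and without IFN-γ replicate 1 the log2 fold change was -3.95.

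**Figure D2:**
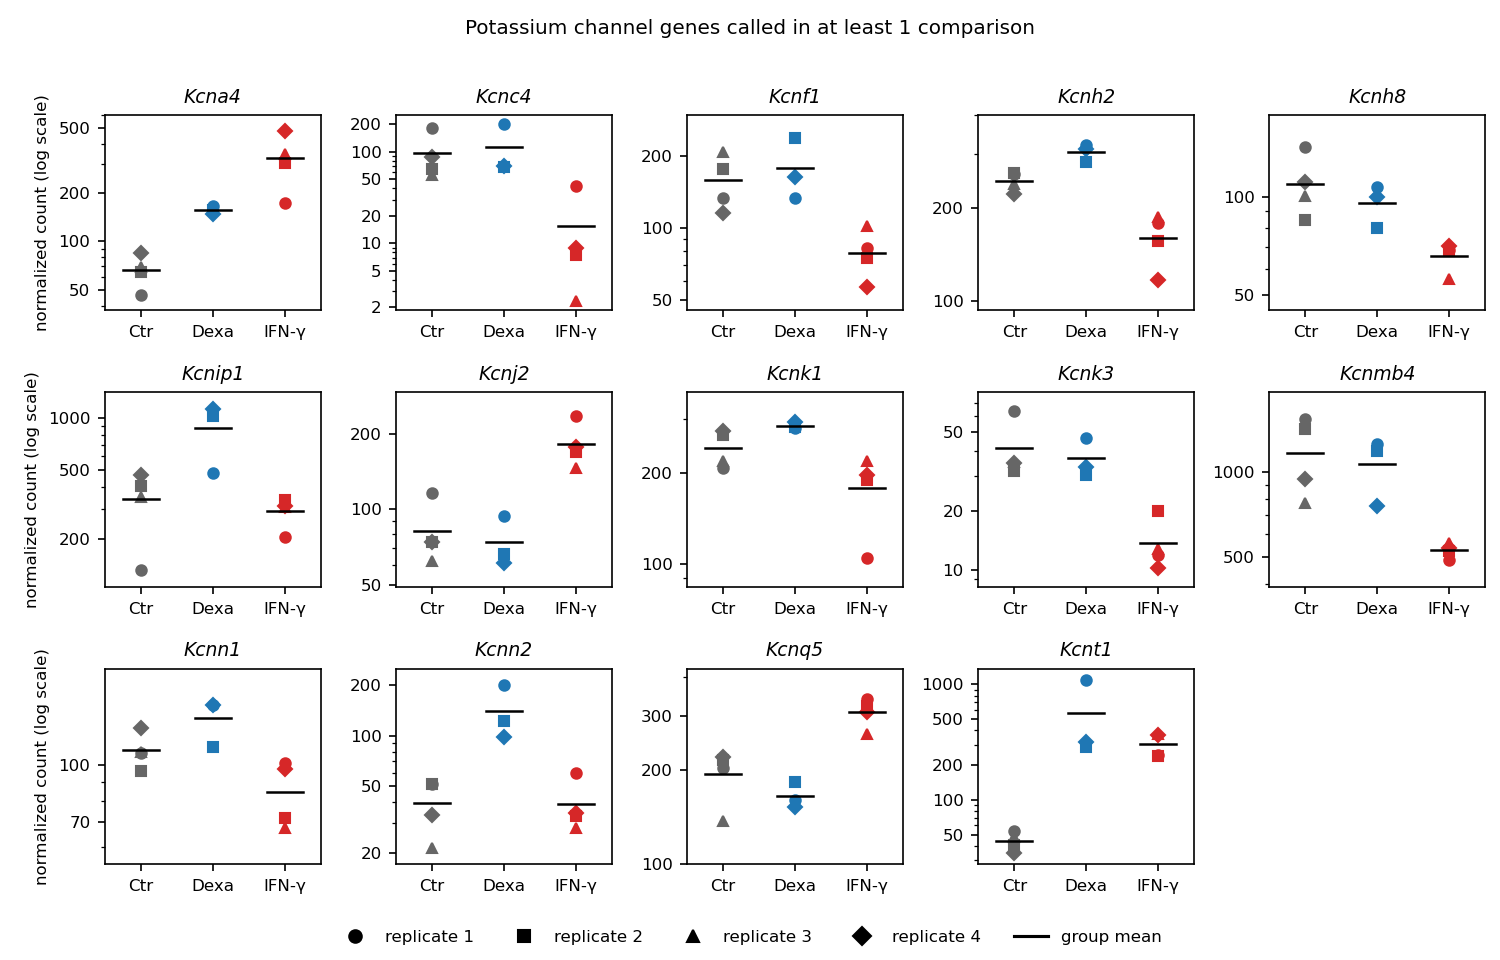
Normalized counts (log scale) of 14 potassium channel genes called in at least 1 of the 3 comparisons, with 1 point per library, symbols for the replicate number and a bar at the group mean. For *Kcna4*, *Kcnt1*, *Kcnj2* and *Kcnq5* every IFN-γ library lies above every Ctr library, and for *Kcnmb4*, *Kcnk3*, *Kcnh2*, *Kcnf1*, *Kcnc4* and *Kcnh8* below; *Kcnt1*, *Kcnn2*, *Kcna4* and *Kcnip1* are higher in every Dexa library than in any Ctr library.

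Apart from *Kcnmb4*, the members named with a median over 3 TPM in Ctr-OPCs gave no call with IFN-γ in the unpaired fit. *Kcnd3* was at 5954, 5373, 5364 and 4762 normalized counts in Ctr and at 5537, 4964, 5172 and 5626 in IFN-γ (log2 -0.01 ± 0.09, adjusted p 0.971), the narrowest difference among the genes named. *Kcnip3* had 41.1, 92.4, 80.8 and 87.9 TPM in IFN-γ (log2 -0.48 ± 0.29, adjusted p 0.346), and *Kcnd2* had 14.9 to 26.2 TPM (log2 -0.39 ± 0.22, adjusted p 0.282). Values of *Kcnj10* (log2 -0.44 ± 0.23), *Kcnj16* (0.44 ± 0.23), *Kcnk10* (0.53 ± 0.32) and *Kcnk2* (0.31 ± 0.34) had adjusted p-values of 0.229 to 0.680. Their groups overlapped, and a p that misses the threshold does not show that the levels were equal.

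The same-numbered libraries of different groups deviated together, so a paired fit, in which the number entered as a block, changed many of these results. With the block DESeq2 called 30 members with IFN-γ, 9 higher and 21 lower, beside 29.2% of all genes tested (15.2% higher and 14.1% lower), and edgeR also called 30 (31.3% of all genes). The 11 members named above were called in both. Among those gained in both tools, *Kcnj10* was lower in 4 of 4 pairs (log2 -0.45 ± 0.07, DESeq2 adjusted p 1.80e-09, edgeR 0.000119), and so were *Kcnd2* (-0.42 ± 0.07, 2.43e-07 and 0.000384) and *Kcnip3* (-0.52 ± 0.13, 0.000527 and 0.0131). *Kcnj16* (0.45 ± 0.09, 8.11e-06 and 0.00112) and *Kcnk10* (0.56 ± 0.09, 2.29e-09 and 0.000347) were higher in 4 of 4 pairs. *Kcnd3* stayed without a call in both paired fits (log2 -0.01 ± 0.08, adjusted p 0.963).

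*Kcnj3*, a subunit of the G protein-gated inward rectifier, had a call in the paired fit only. It had 19.3, 85.5, 185 and 404 normalized counts in Ctr replicates 1 to 4 and 3.97, 26.4, 49.0 and 55.2 in the IFN-γ libraries of the same numbers. The groups overlapped widely (log2 -2.37 ± 1.17, adjusted p 0.203 unpaired), yet every pair fell, and the paired log2 fold change was -2.21 ± 0.30 (DESeq2 adjusted p 4.35e-12, edgeR 0.000161). Its exons share 1621 bases with *Gm26794* on the opposite strand, which had 0 to 57 reads.

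Members called only with the block also included genes of few reads. *Kcng1*, a silent modifier subunit, was lower in 4 of 4 pairs (paired log2 -1.05 ± 0.27, adjusted p 0.000604, unpaired 0.487). *Kcne1l*, a small single-pass accessory subunit, was higher in 1 pair and lower in the other 3 (paired log2 -1.51 ± 0.54, adjusted p 0.0217, unpaired 0.175). *Kcnj14*, an inward rectifier, was higher in 4 of 4 pairs, at 7.34, 8.67, 4.13 and 9.77 in Ctr and 44.7, 13.2, 11.7 and 15.4 in IFN-γ (paired log2 1.39 ± 0.55, adjusted p 0.0425, unpaired 0.0527). Outside the IFN-γ group only Ctr replicate 2 (14 reads) and Dexa replicate 2 (11 reads) reached 10 reads. *Kcnj14* thus met the read minimum only through the IFN-γ libraries, the group where it was high. *Kcnv1*, another silent subunit, had more reads, at 72 to 337 in the complete libraries. It was lower in 4 of 4 pairs (paired log2 -0.48 ± 0.16, adjusted p 0.0122, unpaired 0.342).

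**Figure D3:**
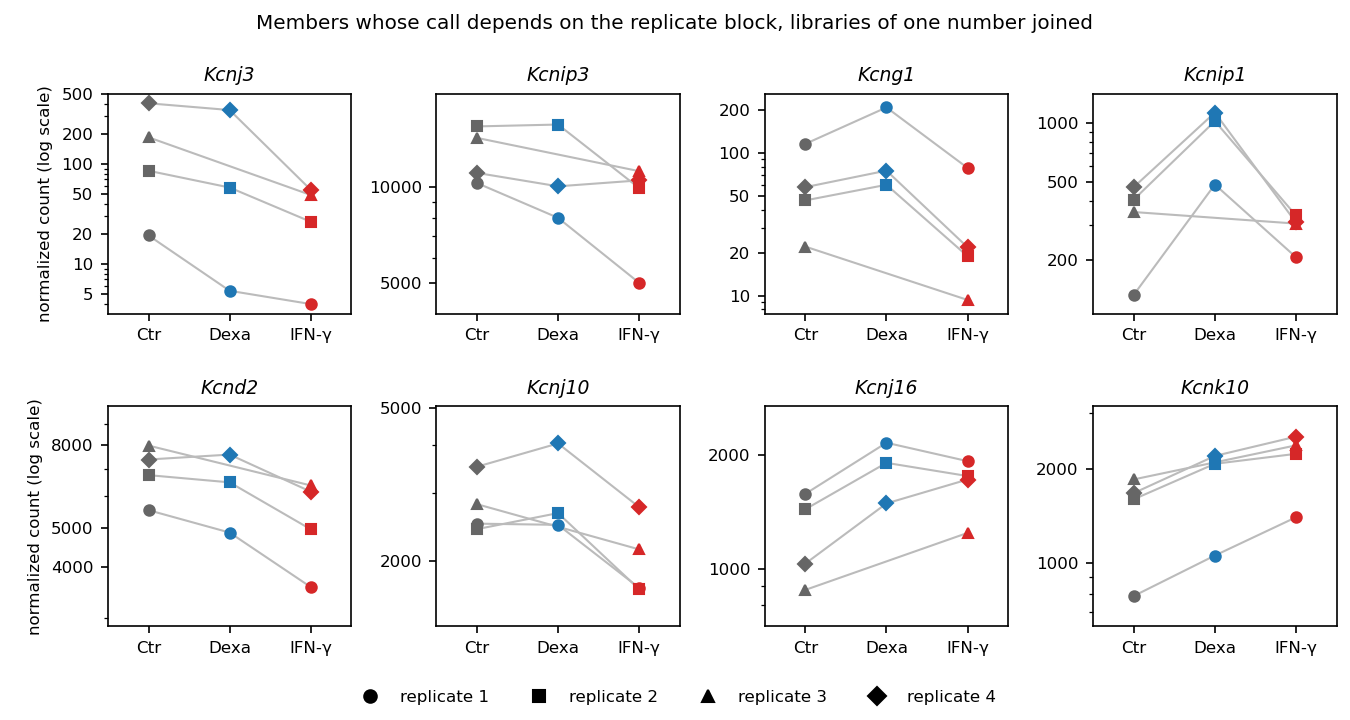
Normalized counts (log scale) of 8 named members whose call changes with the replicate block, with grey lines joining the Ctr, Dexa and IFN-γ libraries of one replicate number (replicate 3 has no complete Dexa library). For *Kcnj3*, *Kcnip3*, *Kcng1*, *Kcnd2* and *Kcnj10* every line falls from Ctr to IFN-γ, for *Kcnj16* and *Kcnk10* every line rises, and for *Kcnip1* and *Kcnj16* every line rises from Ctr to Dexa.

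For many members the replicate 1 libraries stood at one end of every group. Replicate 1 was the lowest library in all 3 groups for 18 of the 65 members (27.7%), beside 20.0% of all genes tested, and the highest in all 3 groups for 15 members (23.1%), beside 19.0% of all genes. *Kcnj3*, *Kcnip1*, *Kcnip3*, *Kcnd2* and *Kcnk10* were among the first, and *Kcng1*, *Kcnc4*, *Kcnj2*, *Kcnj16* and *Kcnma1* among the second. The summed level of the 10 oligodendrocyte markers moved with it, at 88.4, 111 and 74.0 TPM in the replicate 1 libraries of Ctr, Dexa and IFN-γ and at 214 to 572 TPM in the others. Its part in the members' values was not tested.

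Marker sums also differed between groups. The 8 neuronal markers summed to 13.7 to 16.5 TPM in Ctr, 18.0 to 21.2 in Dexa and 27.3 to 60.2 in IFN-γ, where *Tubb3* alone held 22.6 to 56.1 TPM and the neuronal *Slc17a7* and *Stmn2* at most 0.131. Of the 5 tested, *Tubb3* (log2 1.57) and *Syt1* (1.10) were higher with IFN-γ, while *Snap25* (-0.46), *Gad1* (-1.17) and *Rbfox3* (-0.32) had negative values. The 8 astrocyte markers summed to 149 to 317 TPM in Ctr, 308 to 477 in Dexa and 269 to 435 in IFN-γ, and single markers went both ways with IFN-γ: *Gfap* was at 0.0329 to 0.327 TPM in Ctr and 1.29 to 3.27 in IFN-γ, whereas *S100b* had a log2 fold change of -1.60 (DESeq2 adjusted p 0.273 unpaired, 5.54e-28 with the block). The 10 oligodendrocyte markers summed to 88.4 to 542 TPM in Ctr and to 74.0 to 235 TPM in IFN-γ. Of single markers, 1 of OPCs and 1 of oligodendrocytes were called lower with IFN-γ (beside 4.83% of all genes). Higher were 2 of astrocytes, 2 of neurons and 1 of pericytes and fibroblasts (beside 8.02%). Dexamethasone gave 1 call, an endothelial marker that was higher (beside 0.508% of all genes). With the replicate block IFN-γ called 15.2% of all genes higher and 14.1% lower. It then gave lower calls for 6 of 9 OPC markers and 3 of 10 oligodendrocyte markers and higher calls for none of either list. Of the 8 astrocyte markers 4 were then higher and 3 lower, of the 8 neuronal markers 2 and 2, and of the 7 pericyte and fibroblast markers 1 and 1. With dexamethasone the block gave 1 OPC, 2 astrocyte, 1 neuronal and 1 endothelial marker, all higher (beside 2.05% of all genes). Whether these shifts take part in the changes of members that other neural cells also express was not tested.

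How dexamethasone changes the channel genes was read from the same fit. Only 3 of 65 members were called (4.62%, beside 0.547% of all genes tested): *Kcnt1*, *Kcnn2* and *Kcna4*, all higher (0.508% of all genes were higher). edgeR called *Kcnt1* alone (0.123% of all genes). At an unadjusted p under 0.05 there were 7 members in DESeq2, a level for which the share of all genes was not counted. The median log2 fold change of the members was 0.08, beside -0.01 for all genes.

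*Kcnt1* had the largest change of any member. Its normalized counts were 1089, 285 and 316 in Dexa replicates 1, 2 and 4, against 34.8 to 54.2 in Ctr-OPCs, with a log2 fold change of 3.67 ± 0.45, or 12.7-fold (DESeq2 adjusted p 4.23e-13, edgeR 0.0106). Dexa replicate 1 stood far above the other Dexa libraries, and without it the log2 fold change was 2.76, the lowest of the 11 fits that left out 1 library. Between the treatments the gene did not pass the test (log2 -0.88 ± 0.44 for IFN-γ over Dexa, adjusted p 0.197).

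The reads of *Kcnt1* were split differently among its transcripts in the treated cultures. In Ctr-OPCs 56.7% to 62.6% of its reads were assigned to protein-coding transcripts, against 34.3% to 39.6% in Dexa and 26.5% to 40.6% in IFN-γ, with no overlap of Ctr with either. Reads of its retained-intron transcripts, which keep an intron and are not expected to give the full protein, went from 18.0 ± 3.04 normalized reads (SD, n = 4) to 358.5 ± 309 in Dexa (n = 3) and 196 ± 59.6 in IFN-γ (n = 4). Those of its coding transcripts went from 26.0 ± 5.18 to 203 ± 148 and 107 ± 20.3, so the coding part was 7.81-fold and 4.12-fold that of Ctr while the gene as a whole was 12.7-fold and 6.90-fold. The share of a transcript is Salmon's estimate, the libraries hold total RNA, and these shares were not tested.

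**Figure D4:**
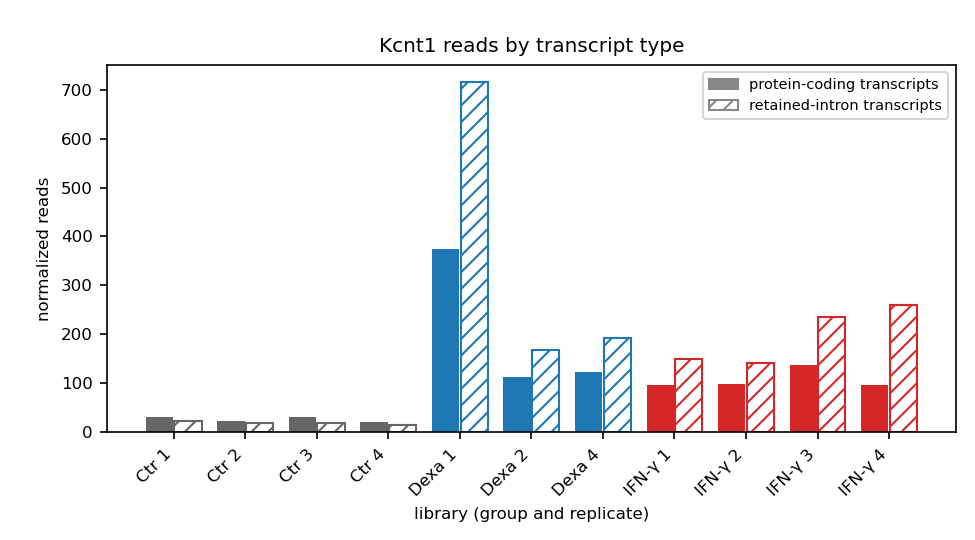
Normalized reads of *Kcnt1* in each complete library, assigned to protein-coding transcripts (filled bars) and to retained-intron transcripts (hatched bars). In the 4 Ctr libraries the filled bar is the taller (20.2 to 31.0 reads against 14.6 to 22.0), and in every Dexa and IFN-γ library the hatched bar is.

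*Kcnn2*, a small-conductance calcium-activated (SK) channel, was at 51.4, 51.4, 21.4 and 33.7 in Ctr and 199.7, 122 and 97.8 in Dexa. The groups did not overlap (log2 1.83 ± 0.40, or 3.56-fold, adjusted p 0.00129), but edgeR gave an adjusted p of 0.186, and without Dexa replicate 1 the DESeq2 value was 0.112. In IFN-γ it was at 59.6, 33.04, 28.0 and 34.7, close to Ctr (log2 -0.02 ± 0.38, adjusted p 0.987). *Kcna4* rose to 164, 155 and 147 in Dexa, above every Ctr library (log2 1.23 ± 0.33, adjusted p 0.0338, edgeR 0.445), and lost the call in 8 of the 11 fits that left out 1 library (largest adjusted p 0.305, without Dexa replicate 1).

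With the replicate block 8 members were called with dexamethasone, all higher (2.57% of all genes, 2.05% higher), and edgeR called 6 (1.57% of all genes). The 3 members above were called in both paired fits, *Kcna4* with a DESeq2 adjusted p of 6.75e-06 (edgeR 0.0239) and *Kcnn2* with one of 1.69e-07 (edgeR 0.00306). *Kcnip1*, a calcium-binding subunit of Kcnd channels, was at 132, 405, 350 and 469 normalized counts in Ctr and 484, 1019 and 1127 in Dexa replicates 1, 2 and 4, higher in 3 of 3 pairs. Its log2 fold change was 1.37 ± 0.41 unpaired (adjusted p 0.124) and 1.44 ± 0.17 paired (1.84e-14, edgeR 0.00231). The incomplete Dexa replicate 3 lists this gene whole, at 9.71 TPM, within the 5.69 to 13.3 TPM of the other Dexa libraries and above the 1.37 to 5.29 TPM of Ctr. *Kcnj16* (0.47 ± 0.10, 0.000494 and 0.0231) was also called in both paired tools.

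**Figure D5:**
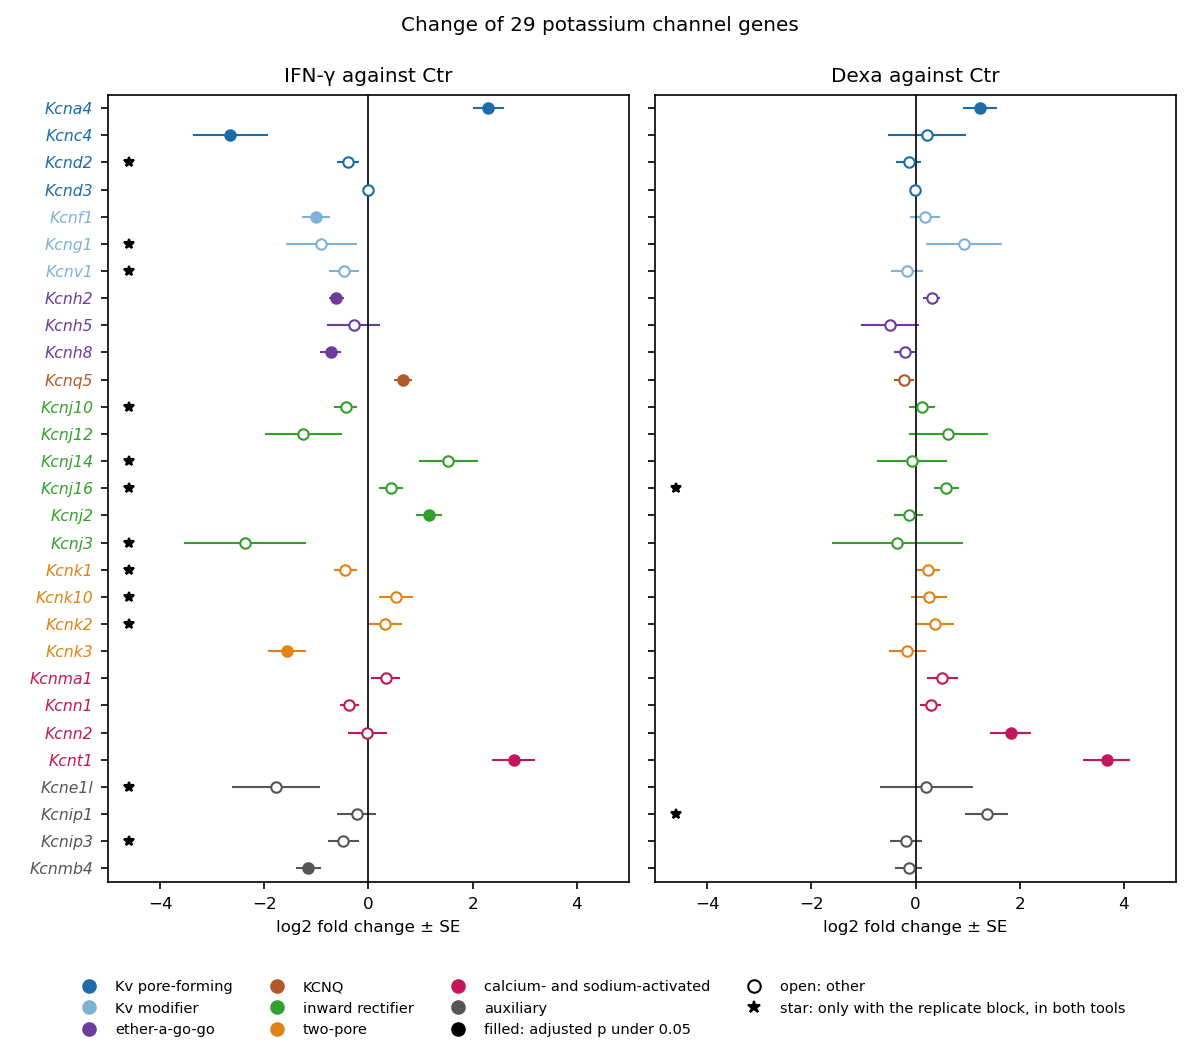
Log2 fold change with its standard error for 29 named potassium channel genes, for IFN-γ against Ctr (left, 4 and 4 libraries) and Dexa against Ctr (right, 3 and 4 libraries), ordered and coloured by class. Filled points had an adjusted p under 0.05 in the unpaired DESeq2 fit (10 on the left, 3 on the right), and stars mark the members called only with the replicate block in both DESeq2 and edgeR (12 and 2); both comparisons share the same Ctr libraries.

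Whether the treatments differ from each other was tested directly, IFN-γ against Dexa. Of 65 members, 13 were called (20.0%, beside 13.1% of all genes), 3 higher in IFN-γ (7.66% of all genes) and 10 lower (5.43%), and edgeR called 10 (8.77% of all genes). *Kcnj2* (log2 1.30 ± 0.28, adjusted p 5.83e-05), *Kcnq5* (0.89 ± 0.19, 0.000103) and *Kcna4* (1.07 ± 0.32, 0.00901) were higher in IFN-γ. *Kcna4* missed the edgeR threshold here (0.0584). In Dexa, *Kcnj2* was at 93.9, 66.5 and 61.2 and *Kcnq5* at 161, 184 and 152, both below every IFN-γ library.

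The 10 lower in IFN-γ than in Dexa included *Kcnh2*, *Kcnn2*, *Kcnf1*, *Kcnip1*, *Kcnmb4*, *Kcnc4*, *Kcnk3*, *Kcnn1* and *Kcnk1*. *Kcnh2* was at 321, 283 and 311 in Dexa (log2 -0.92 ± 0.16, adjusted p 3.97e-07). *Kcnip1* was at 206, 336, 305 and 309 in IFN-γ, below every Dexa library (log2 -1.60 ± 0.41, 0.00157), and *Kcnn2* had a log2 fold change of -1.85 ± 0.40 (8.01e-05). For *Kcnc4* the value was -2.87 ± 0.77 (0.00292), with -4.17 without IFN-γ replicate 1 and -2.15 without Dexa replicate 1 (0.0749). In the unpaired fit 3 members were called in this comparison alone, *Kcnip1* and a pair with lower levels: *Kcnn1*, another SK channel, at 145, 112 and 145 in Dexa and 101, 71.7, 67.6 and 97.6 in IFN-γ (log2 -0.65 ± 0.21, 0.0142, edgeR 0.0701), and *Kcnk1*, a weakly conducting two-pore channel, at 281, 281 and 294 in Dexa and 105.3, 190, 218 and 196 in IFN-γ (log2 -0.69 ± 0.23, 0.0286, edgeR 0.0889).

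For IFN-γ against Dexa the block raised the count to 28 members in DESeq2, 5 higher and 23 lower (31.6% of all genes, 16.2% higher and 15.4% lower), and to 26 in edgeR (33.7% of all genes). *Kcnj12*, a strong inward rectifier close to *Kcnj2*, was lower in 3 of 3 pairs with 1.17 to 11.6 normalized counts in IFN-γ (paired log2 -1.61 ± 0.61, 0.0280, unpaired 0.103). Its counts in Dexa replicates 1, 2 and 4 were 14.03, 10.95 and 52.4, so replicate 4 stood apart and the groups overlapped. *Kcnj10* was lower in 3 of 3 pairs as well (paired log2 -0.57 ± 0.08, 7.46e-12, unpaired 0.12).

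Calls per class were few and are given beside 8.02% of all genes called higher and 4.83% lower with IFN-γ. With IFN-γ, the pore-forming Kv genes had 1 member called higher and 2 lower of 14, and the KCNQ genes 1 higher of 4. The 11 auxiliary genes, the 4 Kv modifiers and the 7 two-pore genes each had 1 lower. The 7 ether-a-go-go genes had 2 lower and the 10 inward rectifiers 1 higher. Of the 8 calcium- and sodium-activated genes 1 was called with IFN-γ and 2 with dexamethasone (beside 12.8% and 0.547% of all genes). Classes were not tested as sets. *Kcnh5*, the ether-a-go-go gene second to *Kcnh2* in level in Ctr-OPCs, was called in none of the 3 comparisons (72.5, 161, 286 and 155 in Ctr, 41.7, 127, 224 and 162 in IFN-γ). Class medians of the log2 fold change with IFN-γ ran from -0.75 to 0.09 over 4 to 14 members each.

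Of 33 other genes of potassium handling (pacemaker channels, subunits of the sodium pump, cotransporters and accessory proteins), 21 were tested. With the block in DESeq2, IFN-γ gave 4 higher and 7 lower calls (beside 15.2% and 14.1% of all genes). In the unpaired fit 1 was called higher and 1 lower with IFN-γ (beside 8.02% and 4.83% of all genes). The first was *Slc12a7*, a potassium-chloride cotransporter, at 276 ± 132 normalized counts in Ctr, 276 ± 78.8 in Dexa and 4962 ± 351 in IFN-γ (SD, n = 4, 3 and 4; log2 4.17 ± 0.32 over Ctr, adjusted p 8.22e-37), a larger change than that of any Kcn gene in the same comparison. The second was *Hcn2*, a pacemaker channel, which fell from 86.0 ± 4.16 to 55.1 ± 11.2 (log2 -0.63 ± 0.18, adjusted p 0.00472). With dexamethasone 0 of the 21 were called in DESeq2 and 0 in edgeR (beside 0.547% and 0.123% of all genes). At an unadjusted p under 0.05 there were 3 in DESeq2, and the share of all genes at that level was not counted. The block in DESeq2 gave 3 calls, all higher (beside 2.05% of all genes). With the block in DESeq2 3 were higher and 7 lower in IFN-γ than in Dexa (beside 16.2% and 15.4% of all genes). Without it 1 was higher, *Slc12a7*, and 3 were lower (beside 7.66% and 5.43% of all genes). Among the lower ones were *Hcn2* (55.1 ± 11.2 against 101.4 ± 7.61, adjusted p 0.0001) and *Atp1b2*, a sodium pump subunit (799.7 ± 210.3 against 1249 ± 156, adjusted p 0.0305).

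Promoter sequences are shown for 3 members called with IFN-γ, chosen after their values were seen from those whose start in the RefSeq promoter table (GRCm38.p6) lies within 50 bases of the start of their main transcript: *Kcna4*, called with both treatments, *Kcnj2*, which rose, and *Kcnf1*, which fell. Each is the 250 bases before the start, 5′ to 3′ on the gene's strand, and capitals mark a match to ACANNNTGT, the spaced core letters of a glucocorticoid receptor site. *Kcna4* lies at chr2:107290339-107290588 (plus strand), *Kcnj2* at chr11:111065914-111066163 (plus strand) and *Kcnf1* at chr12:17176889-17177138 (minus strand).
Kcna4: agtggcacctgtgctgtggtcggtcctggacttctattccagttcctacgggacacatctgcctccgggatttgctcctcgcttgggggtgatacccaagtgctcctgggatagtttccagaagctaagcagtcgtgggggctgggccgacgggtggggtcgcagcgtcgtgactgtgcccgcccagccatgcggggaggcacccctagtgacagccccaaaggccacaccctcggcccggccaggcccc
Kcnj2: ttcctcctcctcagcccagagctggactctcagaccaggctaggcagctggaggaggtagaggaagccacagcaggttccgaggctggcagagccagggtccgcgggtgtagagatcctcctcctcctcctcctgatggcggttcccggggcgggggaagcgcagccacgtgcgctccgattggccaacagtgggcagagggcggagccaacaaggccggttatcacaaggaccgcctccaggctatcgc
Kcnf1: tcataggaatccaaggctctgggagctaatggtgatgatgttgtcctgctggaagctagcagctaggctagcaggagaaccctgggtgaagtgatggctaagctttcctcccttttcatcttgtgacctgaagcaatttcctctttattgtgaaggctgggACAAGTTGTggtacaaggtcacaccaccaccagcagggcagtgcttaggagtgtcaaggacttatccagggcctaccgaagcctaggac

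The letters ACANNNTGT were searched on both strands of the 300-base windows of the table, which run from 250 bases before to 50 bases after each start. Of the 15 members called, 11 had a window. *Kcnt1* and *Kcnn2* had none, so of the members called with dexamethasone in the unpaired fit only *Kcna4* was searched. For each of the 11 members the 1 window nearest the start of its main transcript was used. The start of that window's promoter lay 22013 bases from the main transcript's start for *Kcnh2*, 1423 for *Kcnn1* and 654 for *Kcnc4*. ACANNNTGT was found in 1 of the 11, *Kcnf1*, in which it starts 89 bases before the gene's start. *Kcnf1* was not called with dexamethasone (log2 0.17 ± 0.29 over Ctr). Over all 94 windows of members ACANNNTGT was in 6, and over all 32851 windows of the table it was in 6.85%. A match is only a run of letters, and the absence of one says nothing of the factor beyond these windows.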

How the data were processed

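Per the labels, RNA of cultured OPCs was sequenced as total RNA with a stranded kit, and the authors quantified it with Salmon 0.8.2 (STAR and DESeq2 are also named in the submitters' processing notes, with builds mm10 and GRCm38). The deposited tables give per transcript an estimated count (expected count, NumReads) and a TPM value per library, and whether the counting used strand is not given in the sources used here. Tables of the authors' own comparisons were not used.

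Estimated counts and TPM were summed per gene over Ensembl release 96 and the counts rounded. DESeq2 1.42.0 (R 4.3.3, Wald test) was run with group as the single term on 4 Ctr, 3 Dexa and 4 IFN-γ libraries. It took 17919 genes with at least 10 reads in at least 4 libraries, with Benjamini-Hochberg adjustment and a threshold of 0.05. The default mean-count filter of DESeq2 left some genes without an adjusted p, among them *Kcnh3* and *Kcnmb3* for Dexa against Ctr. Such genes stayed in the totals as not called. The Dexa replicate 3 table lists 47855 of 141862 transcripts and was left out of this fit. It entered only an alternative over 6319 genes it lists whole. The other alternatives were edgeR 4.0.16 (quasi-likelihood), a replicate block in both tools, TMM factors, no filter, and leaving out each library. Scripts were tested on simulated data.

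Replicates are separate litters per the study's methods. Same-numbered libraries deviated together (10 correlations of deviations from the group mean, 0.414 to 0.745, against -0.646 to 0.526 for 30 pairs of different number), so the numbers were taken to pair the samples. No libraries were duplicates. Reads in genes, 19209059 to 52074655 per complete library, limit precision for members with few reads.

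Named genes were members called in any comparison, members called in both blocked fits whose log2 change reached 1 up or down, and the 2 highest members per class. The members and lists were chosen with earlier results of these data known. A planned search of protein sequences was not run, and protein sequences were not used here. Promoters came from the RefSeq table. Some genes and a motif are not reported here.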

Additional observations from a re-analysis of the deposited data

Results flagged for a closer look

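In 3 of 71 groups of 4 libraries 1 library stood apart by Dixon's test at its 95% critical value, a share that chance gives in about 1 of 20 groups. Among IFN-γ libraries, *Kcng1* had a highest value of 0.485 TPM against a next value of 0.129 (ratio 0.859), *Kcnj14* 0.372 against 0.131 (ratio 0.84) and *Kcnk3* 0.146 against 0.0695 (ratio 0.891).

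*Kcnh1*, *Kcna5* and *Kcnj15*, under the read minimum, were picked because every library of a treated group lay above every Ctr library. Their p-values rest on the same values as this choice and are no separate support. Without the filter 13 of 92 members were called for IFN-γ against Ctr, beside 2298 of 33403 genes. For IFN-γ against Dexa these were 15 of 92 and 2289 of 33403. *Kcnh1*, an ether-a-go-go channel, had 1, 5, 7 and 1 reads in Ctr and 41, 34, 9 and 9 in IFN-γ, a mean normalized count of 23.7 against 2.48. Without the filter its log2 fold change was 3.18 ± 0.68 over Ctr (DESeq2, adjusted p 7.15e-05) and 2.07 ± 0.70 over Dexa (0.0319). In Dexa its mean was 5.81. *Kcna5*, a Shaker family channel, had a mean of 16.6 in Dexa against 4.29 in Ctr (log2 1.96 ± 0.61 without the filter, DESeq2 adjusted p 0.197). *Kcnj15*, an inward rectifier, had a mean of 3.47 in IFN-γ against 0.402 in Ctr (DESeq2 adjusted p 0.164). In the other direction, without the filter, *Kcnk12*, a two-pore channel, had 3, 10, 10 and 8 reads in Ctr and 3, 0, 0 and 0 in IFN-γ (DESeq2 log2 -2.94 ± 1.04, adjusted p 0.0493). *Kcnj5*, a G protein-gated inward rectifier, had 5, 0 and 7 reads in Dexa and 0 in each IFN-γ library (DESeq2 adjusted p 0.041).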

How the results depend on the processing

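Of 27 calls (member and comparison), 27 were kept with TMM factors, without the filter and with the replicate block in either tool, and edgeR without the block lost 7. With the replicate block 30 members were called in DESeq2 and 30 in edgeR for IFN-γ against Ctr (29.2% and 31.3% of all genes). For Dexa against Ctr there were 8 and 6 (2.57% and 1.57%), and for IFN-γ against Dexa 28 and 26 (31.6% and 33.7%). edgeR without the block called 1 member for Dexa against Ctr (0.123% of all genes). With Dexa replicate 3 added, only 27 members could be tested and 4, 1 and 8 were called (13.2%, 0.364% and 17.5% of the 6319 genes of that fit), *Kcnip1* being the 1 for Dexa. Leaving out 1 library gave 10 to 12 members for IFN-γ against Ctr, 2 to 3 for Dexa against Ctr and 10 to 15 for IFN-γ against Dexa. Of the 17919 genes tested, these fits called 1714 to 2647, 60 to 112 and 1679 to 2512 in the same comparisons. In all 11 such fits 19 of the 27 calls held. The other 8 included *Kcna4* and *Kcnn2* for Dexa and *Kcna4* (lost without Dexa replicate 2 or 4), *Kcnk1*, *Kcnn1*, *Kcnc4* and *Kcnk3* for IFN-γ against Dexa. Without Dexa replicate 1 the DESeq2 adjusted p was 0.0749 for *Kcnc4* and 0.0656 for *Kcnk3*, and for *Kcnk1* and *Kcnn1* the largest values were 0.119 and 0.0957. Without IFN-γ replicate 1 *Kcng1* was called for IFN-γ against Ctr (log2 -1.85, adjusted p 0.0312). The unpaired value of *Kcnj3* for IFN-γ against Dexa ranged from -2.59 without Dexa replicate 1 to 0.07 without Dexa replicate 4 (adjusted p 0.991), which turned its direction, and the cause was not tested.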
